A study of Zea mays with 54 samples.

Results

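The root transcriptomes of the maize (Zea mays) lines EP1 and F2 were compared at high phosphate (P) supply, from 3 EP1 and 3 F2 libraries, which are 6 of the 54 libraries of the study. The study covered 9 genotypes at high and low P with 3 libraries in each of 18 groups. The 6 libraries were taken by the genotype and treatment that the labels give: root of genotype EP1 at high P, and root of genotype F2 at high P, with no other treatment, mutation or transgene named for either group. The labels give no plant age, growth medium or P concentration. Whether plants were pooled for a library is not stated either, so the spread behind the p-values is that between these samples and may be technical only. The 3 EP1 and 3 F2 libraries at low P, which the high P comparison did not use, and the high P libraries of the other 7 genotypes were used to describe the same genes elsewhere.

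EP1 and F2 are European flint inbred lines. An inbred line is close to homozygous, so roots of 2 lines grown alike can differ in every gene at which the lines carry different alleles. Maize inbreds are known to differ in gene content as well as in the regulation of shared genes, with whole genes or stretches of genes present in some lines and missing from others. Phosphate is taken up by the root, and its supply resets a large part of root gene expression, so a difference between lines at ample P is the baseline against which their responses to P shortage are read.

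The high P libraries held 15585904 to 20031432 counts (the number of reads assigned to annotated features), and the low P libraries of the same lines 20189443 to 28733284. Levels are given as CPM (counts per 1000000, each library divided by its TMM-scaled total), with the mean ± SD over 3 libraries where a group is summarised. A count of 0 in the shallowest high P library allows up to 0.192 CPM, taking 3 counts as the limit, and such limits cover counting error only. Nuclear gene models took 99.9% of the counts in each of the 6 libraries. Reads were aligned to the genome of a different inbred line, B73 (RefGen_v4), per the submitters' processing notes. For a gene with no reads in a line, absence of the gene, absence of its transcript and a sequence too unlike B73 to be aligned cannot be told apart in these data. The deposited files do not pair the nuclear identifiers with names, so nuclear genes appear here by identifier and without a function, and the root and shoot marker lists could not be read.

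At high P the lines differed in 8387 of 25536 tested features (32.8%; edgeR quasi-likelihood F-test, Benjamini-Hochberg adjusted p under 0.05). The differences were split almost evenly: 4227 features (16.6%) were higher in EP1 and 4160 (16.3%) were higher in F2. This split depends on the scaling, and scaling by total counts gave 4486 and 3932. Differences of at least 2-fold were found for 5187 features (20.3%), of which 2558 were higher in EP1 and 2629 in F2. The count fell with the size of the difference, to 1378 and 1415 features at 4-fold or more, 732 and 714 at 16-fold or more, and 380 and 425 at 100-fold or more. In 8335 of the 8387 called features (99.4%) the EP1 and F2 libraries did not overlap in CPM, against 12142 of all 25536 tested (47.5%). In bulk root, fewer cells of a type and less RNA per cell cannot be told apart, and this holds for each difference below.

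**Figure D1:**
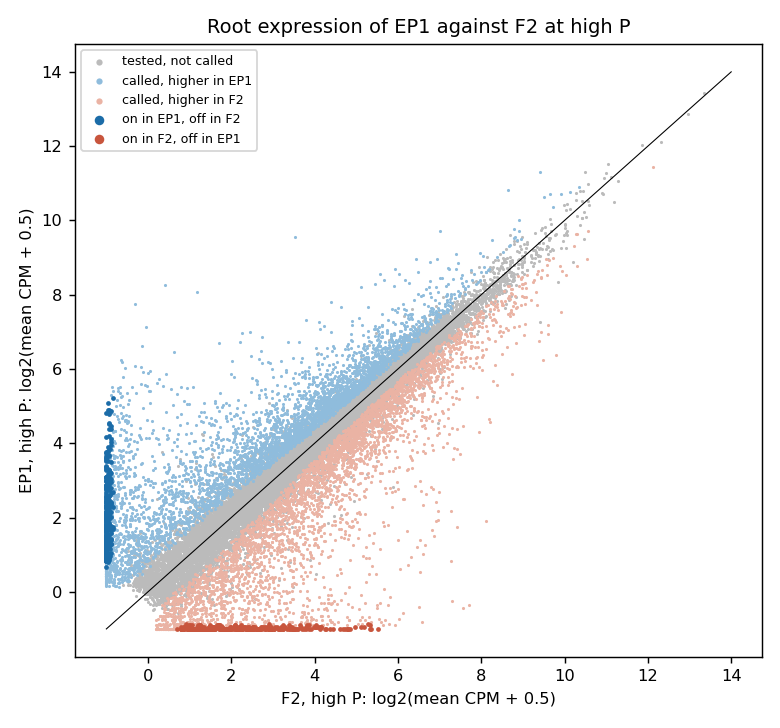
Mean level of each tested feature at high P in F2 (x axis) and EP1 (y axis), both as log2(mean CPM + 0.5) over 3 libraries. Grey points did not pass the test, pale blue and pale red points were called higher in EP1 and in F2, and dark points are the 256 and 293 features on in 1 line and off in the other, which lie along the left and the lower edge.

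The calls were also counted by level. Of the 1972 features with a mean of at least 100 CPM over the 6 libraries, 26.8% were called and 9.23% were called with at least 2-fold, 75 of them higher in EP1 and 107 in F2. Between 10 and 100 CPM, 30.8% of 12880 features were called and 12.1% were called with at least 2-fold. Between 1 and 10 CPM the shares were 35.2% and 30.1% of 8958 features. Under 1 CPM, 43.2% of 1726 features were called, and all 746 of these differed by at least 2-fold. Features this low mostly enter the test through the line in which they are higher, so no order of the classes is read from these shares. CPM is not corrected for gene length, so these classes order the depth behind a value rather than the abundance of a transcript.

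The sets of expressed features were largely shared. With a feature called on where all 3 libraries of a line held at least 1 CPM, 22270 features were on in EP1, 22072 in F2 and 20686 in both. On the length-corrected FPKM scale (the count divided by gene length and library total, the authors' values), 71 of the 100 highest features were the same in both lines. The 100 highest features took 10.3% to 12.5% of the counts in the EP1 libraries and 10.4% to 10.8% in the F2 libraries, so the ranges overlapped. Of the 71 shared features 14 were called, beside 32.8% of all tested features. The 71 were picked for being high in both lines, which by itself limits a difference. Nothing is therefore read from the 14 calls. The 29 features on each list alone were picked by their level in that line, so their calls are not counted.

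The largest differences were between genes read in 1 line and at or near 0 in the other. Zm00001d008856 stood at 22.2, 29.1 and 30.9 CPM in the EP1 libraries and had 0 counts in all 3 F2 libraries. It was at least 487-fold higher in EP1, against a floor of 3 counts over the 3 F2 libraries together (edgeR adjusted p = 2.8e-05). The same floor, pooled over the libraries of the line without reads, holds for the other fold limits below. F160 and SF1 also had 0 counts of Zm00001d008856 at high P, while F7 held 2.99 ± 0.191 CPM, the highest of the other genotypes. The EP1 level therefore stood above that of all 8 other genotypes measured.

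Zm00001d022659 stood at 16.6, 16.1 and 19.8 CPM in EP1 and at 0 counts in the 3 F2 libraries. It was at least 310-fold higher in EP1 (edgeR adjusted p = 3.12e-05). Unlike the previous gene it was also read in SM1, at 9.03 ± 1.48 CPM, and less in P024, at 2.71 ± 1.25 CPM, and in P415, at 2.05 ± 0.56 CPM. F160, SF1 and F7 had 0 counts at high P, as F2 had.

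In the other direction, Zm00001d004471 stood at 41.6, 46.8 and 48.8 CPM in F2 and had 0 counts in the EP1 libraries. It was at least 880-fold higher in F2 (edgeR adjusted p = 9.93e-06). SF1 held more, 82.1 ± 7.16 CPM at high P, and the remaining 6 genotypes had means between 0 and 0.179 CPM. EP1 thus shared its lack of reads with most of the panel, and F2 its expression with SF1 alone.

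Zm00001d050845 stood at 32.5, 43.4 and 44.7 CPM in F2 and had 0 counts in EP1. It was at least 773-fold higher in F2 (edgeR adjusted p = 1.9e-05). F160, at 33.3 ± 2.83 CPM, and SF1, at 51.8 ± 0.331 CPM, held levels near that of F2, and the other 5 genotypes had at most 0.282 CPM.

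A feature was called silent in a line where all 3 of its libraries held under 0.1 CPM, which at this depth is at most 1 read. By this rule 256 features were on in EP1 and silent in F2, and 293 were on in F2 and silent in EP1. They make up 1.15% of the features on in EP1 and 1.33% of those on in F2. The rule uses the same 6 libraries as the comparison, so these counts are a description and carry no test. Of the 256 features, 129 had no read at all in the 3 F2 libraries, and of the 293, 202 had none in the 3 EP1 libraries.

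These features were low and short compared with all tested features. The 256 ranged from 1.09 to 37.0 CPM in EP1 with a median of 3.6, and 33 of them reached 10 CPM. The 293 ranged from 1.13 to 45.7 CPM in F2 with a median of 3.84, and 52 of them reached 10 CPM. All tested features had a median of 14.5 CPM. Their median gene length was 980 bases in the EP1 set and 1030 bases in the F2 set, beside 1780 bases for all tested features. Gene length and read depth move together in counts, and their part in which genes passed the rule was not tested.

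The highest gene of the EP1 set was Zm00001d003796, at 29.6, 40.9 and 40.5 CPM in EP1 and at 0.0552, 0.0511 and 0.0641 CPM, 1 read each, in F2. Its log2 fold change was 9.21 ± 0.29 (SE; edgeR adjusted p = 4.37e-06). This gene was silent in no other genotype: the high P means of the other 7 ran from 1.91 ± 0.774 CPM in P415 to 7.11 ± 0.731 CPM in SM1. EP1 lay above all of them and F2 below all of them. The highest gene of the F2 set was Zm00001d004471, described above.

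The limit falls between whole read counts, with features close to it on both sides. The highest level in the silent line was 0.0641 CPM inside the EP1 set and 0.0537 CPM inside the F2 set, and the nearest feature outside either set had 0.102 CPM. A further 214 features on in EP1 and 169 on in F2 had their highest library of the other line between 0.1 and 0.3 CPM.

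The low P libraries, which the rule had not used, gave the same state for most of these features. Of the 256, 213 were on in EP1 at low P, 228 were silent in F2, and 191 (74.6%) met both parts of the rule. None of the 256 was on in F2 at low P. Of the 293, 237 were on in F2 at low P, 250 were silent in EP1, and 201 (68.6%) met both parts, again with none on in the silent line. Low P left 5 of the 293 silent in F2 too.

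Read in the opposite order, 404 features were on in EP1 and silent in F2 at low P, and 191 of them met the rule at high P, with 2 on in F2. Of 319 features on in F2 and silent in EP1 at low P, 201 met it at high P, with 1 on in EP1. Reads of these features at high P in the line silent at low P were also summed. Expression in that line and RNA of the other line cannot be told apart in such reads. Many of the features are low, so a median ratio of 0 does not show that a small share is absent. In the high P libraries of F2, 6 to 8 of the 404 reached 1 CPM. Their summed level was 0.76% to 1.21% of that in EP1, while the median ratio over the 404 was 0 in each library. In the high P libraries of EP1, 1 to 3 of the 319 reached 1 CPM, with a summed level of 0.503% to 0.64% of that in F2 and again a median ratio of 0.

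The 4 genes with the largest differences kept their direction at low P. Zm00001d008856 stood at 22.8, 17.7 and 16.8 CPM in EP1 at low P against 0 counts in F2, at least 416-fold (edgeR adjusted p = 1.6e-05). Zm00001d022659 stood at 2.91, 3.15 and 2.29 CPM in EP1 at low P against 0 counts in F2, at least 60.6-fold (edgeR adjusted p = 0.00015). Its EP1 level at low P was below each of its high P libraries. Zm00001d004471 stood at 37.2, 33.9 and 36.4 CPM in F2 at low P and at most at 0.0881 CPM in EP1. Zm00001d050845 stood at 35.0, 36.7 and 37.3 CPM in F2 and also at most at 0.0881 CPM in EP1.

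**Figure D2:**
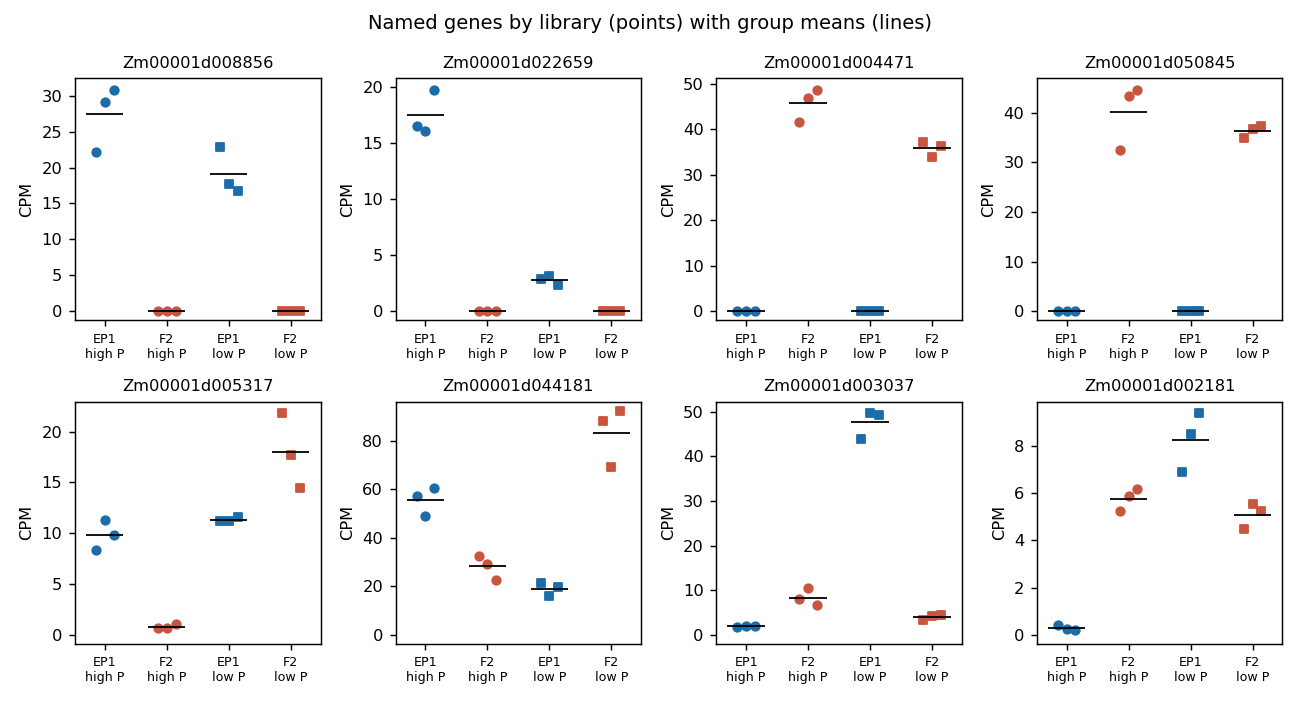
CPM in each library (points) and group means (lines) of 8 named genes in EP1 (blue) and F2 (red) at high P (circles) and low P (squares), each panel on its own linear scale. In 4 panels 1 line holds all or nearly all reads at both P levels, and in the other 4 the line with more reads at high P is the one with fewer at low P.

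The other genotypes held every mixture of states of the EP1 and F2 sets. Of the 256 features on in EP1 and silent in F2, 60 were on in F160 (23.4%), 63 in SF1 (24.6%), 75 in F142 (29.3%), 76 in SM1 (29.7%), 61 in P024 (23.8%), 66 in F7 (25.8%) and 70 in P415 (27.3%). In each of these genotypes more of the 256 were silent than on, from 73 in F7 and 108 in F142 to 152 in F160. The F7 counts change with its high P library 1, without which 110 of the 256 were silent and 69 on. Of the 256, 84 were on in no other genotype and 3 were on in all 7, while 19 were silent in all 7.

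The 293 features on in F2 and silent in EP1 were on more often in some genotypes than in others. Between 123 (42.0%, SM1) and 136 (46.4%, SF1) were on in the other genotypes of the first table, and 112 (38.2%) in F7. Only 57 (19.5%) were on in P024 and 66 (22.5%) in P415, where 147 and 153 were silent. F7 had 67 silent, and 97 without its high P library 1. Of the 293, 62 were on in no other genotype, 16 were on in all 7 and 9 were silent in all 7. P024, F7 and P415 come from a second count table and their CPM are scaled to total counts alone, so table and genotype cannot be told apart for these 3. The share of all features on or silent in each genotype was not counted. The shares of both sets are therefore a description, and nothing particular to these features is read from them.

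**Figure D3:**
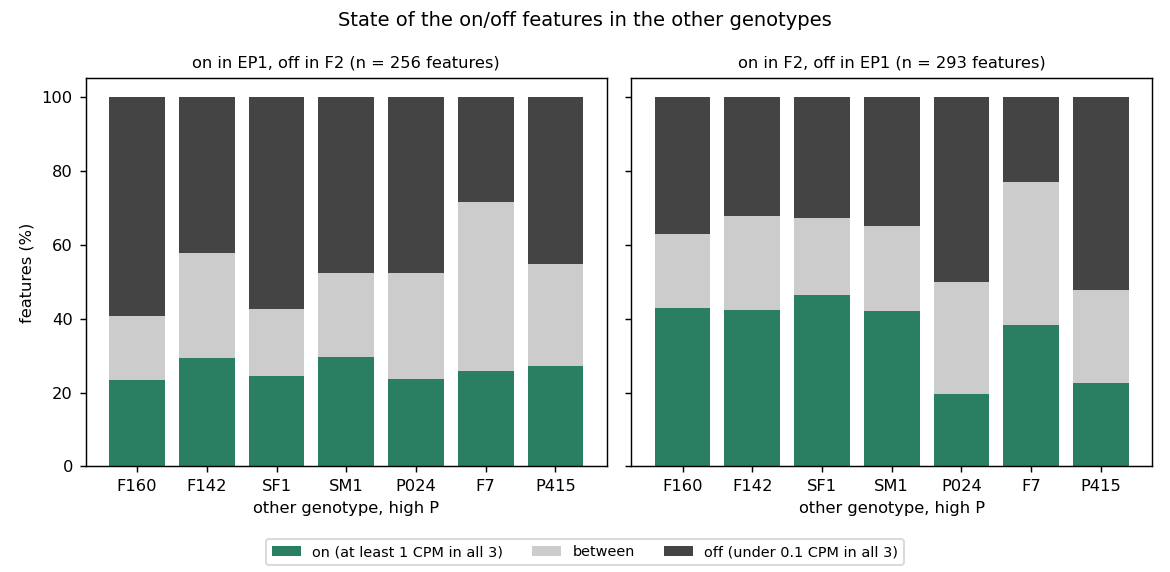
Share (%) of the 256 features on in EP1 and silent in F2 (left) and of the 293 on in F2 and silent in EP1 (right) that were on (green), silent (dark) or between (grey) in the 3 high P libraries of each other genotype. The green share runs from 23.4% to 29.7% in the left panel and from 19.5% (P024) to 46.4% (SF1) in the right one.

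The 5187 features called with at least 2-fold did not place the other genotypes with 1 of the lines. By mean CPM on a log2 scale, F142 was nearer to EP1 for 2695 features (52.0%), SF1 for 2622 (50.5%), F160 for 2559 (49.3%) and SM1 for 2350 (45.3%). EP1 lay outside the range of these 4 genotypes for 2705 features and F2 for 2693, both at once for 1191. The features were picked by a difference between EP1 and F2, which by itself moves the lines towards the edges of a range. The share over all tested features was not counted, so nothing about the lines is read from these counts.

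Ordered by identifier, 1 stretch of genes stood apart. It was chosen after the values were seen and is given without a test. Among the 24696 nuclear genes with a mean of at least 1 CPM in either line, 804 were at least 10-fold higher in EP1 and 869 in F2. Such genes mostly stood alone: EP1 had 657 single genes, 56 runs of 2 and 4 runs of 3, and F2 had 709 single genes, 64 runs of 2, 8 of 3 and 2 of 4. One run held 23 consecutive expressed genes, from Zm00001d035343 to Zm00001d035436, all at least 10-fold higher in EP1. Identifiers of this annotation are numbered broadly along the chromosomes, and the positions were not checked here.

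The 23 genes ranged from 1.11 to 304 CPM in EP1, with a median of 6.37, and the highest mean of any of them in F2 was 0.823 CPM. In F2, 9 of the 23 had no read and 20 were under 0.1 CPM. Summed over the 23 genes, the EP1 libraries held 541, 602 and 607 CPM and the F2 libraries 0.331, 2.18 and 2.35 CPM. The span holds 66 identifiers, and the other 43 had means under 1 CPM in both lines, with at most 0.691 CPM in EP1 and 0.528 CPM in F2. The 0.528 CPM belong to Zm00001d035398, which had 0 counts in EP1 and so lay in the opposite direction. The run supplies 13 of the 256 features on in EP1 and silent in F2, leaving 243 outside it.

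On both sides of the run F2 was expressed. Of the 10 expressed genes before it 9 had at least 1 CPM in F2, with medians of 2.98 CPM in F2 and 5.28 CPM in EP1. Of the 10 after it 9 had at least 1 CPM in F2, with medians of 29.6 and 39.2 CPM. At low P the F2 libraries held 0.0939 to 1.2 CPM over the 23 genes and the EP1 libraries 413 to 452 CPM, so the pattern was present in those libraries too.

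The same stretch divided the other genotypes. SM1 had 22 of the 23 genes at a mean of at least 1 CPM, P024 and F7 17 each and P415 16. F160 had 1, F142 3 and SF1 2, and these had 21, 17 and 19 of the genes under 0.1 CPM. The summed level at high P was 677 to 914 CPM in SM1, 531 to 1080 in P024, 330 to 398 in F7 and 837 to 1270 in P415. It was 7.81 to 9.73 CPM in F160, 17.2 to 19.0 in F142 and 15.9 to 20.4 in SF1. EP1 thus lay with SM1, P024, F7 and P415, and F2 with F160, F142 and SF1, with no overlap between the libraries of these genotypes.

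**Figure D4:**
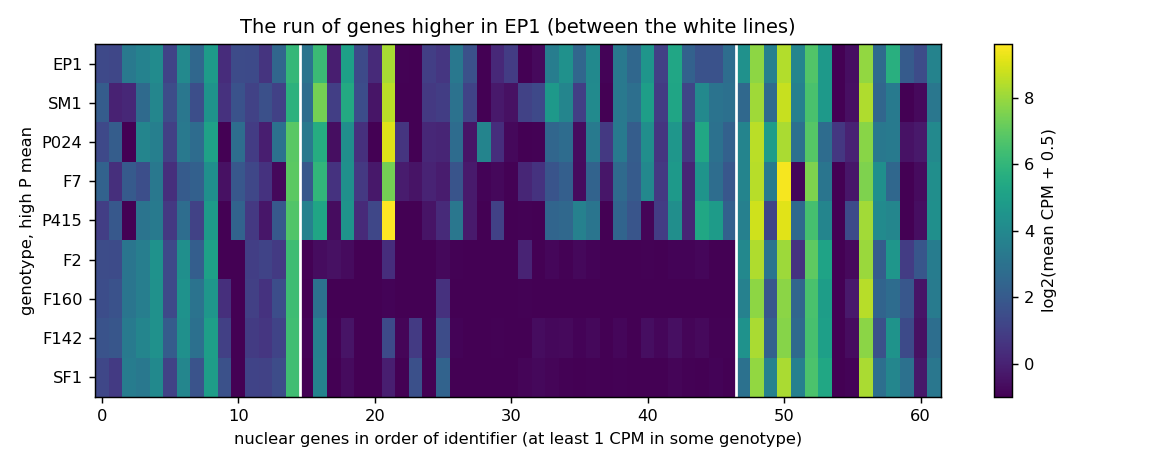
High P mean of each nuclear gene, as log2(mean CPM + 0.5) by colour, with genes in order of identifier (x axis, genes of at least 1 CPM in some genotype) and genotypes in rows. Between the white lines lie 32 genes, the 23 of the run and others expressed in other genotypes alone; EP1, SM1, P024, F7 and P415 are bright for most of them and F2, F160, F142 and SF1 dark for most, with exceptions such as Zm00001d035346 at 7.55 CPM in F160 and 12.4 CPM in F142, while on either side all rows hold bright genes.

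The same comparison of lines at low P called 13102 of 25831 tested features (50.7%; edgeR quasi-likelihood F-test), 6606 higher in EP1 and 6496 in F2. With scaling by total counts the split was 7859 and 5580. The spread between libraries was smaller there, with a biological coefficient of variation of 0.159 at low P and 0.22 at high P, and the counts of the P levels are not compared. Of the 8076 features called at high P and tested at low P, 7560 (93.6%) had the same sign at low P and 6403 (79.3%) were called in the same direction, with 135 called in the opposite one. The share rose with the size of the difference at high P. Of 4877 features called with at least 2-fold 4189 (85.9%) were called in the same direction, and of 1298 with at least 16-fold 1284 (98.9%), with 3 opposite. Of the 16763 not called at high P, 67.8% had the same sign and 28.1% were called at low P in the direction of their high P value. Across 24839 features tested at both levels Pearson's r of the log2 fold changes was 0.915, as a description over features, which are not independent replicates and share the libraries of each level.

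**Figure D5:**
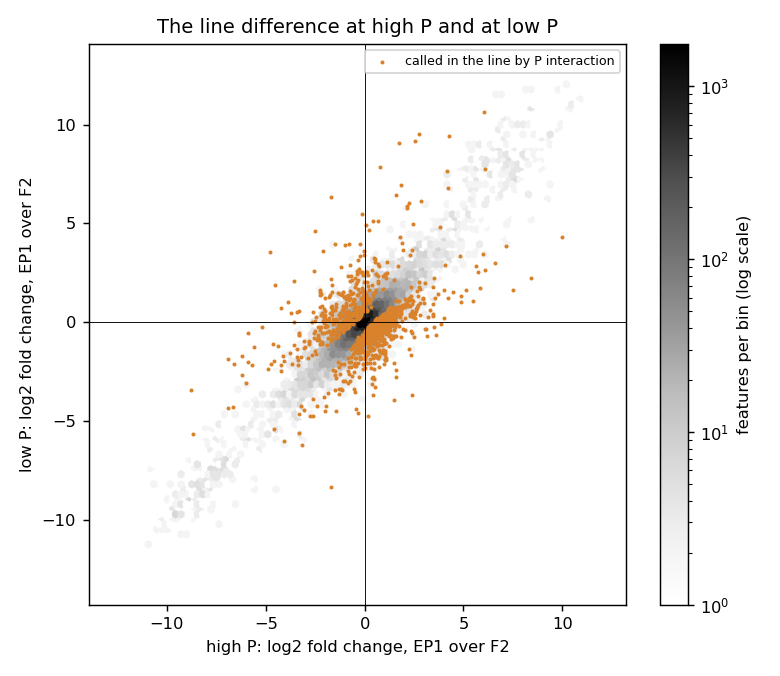
Log2 fold change of EP1 over F2 at high P (x axis) and low P (y axis) for the 24839 features tested at both levels, as bins shaded by the number of features on a log scale. Orange points are features called in the line by P interaction, most of which lie away from the diagonal along which the shaded bins run.

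Whether the line difference depended on P was tested as an interaction over the 12 libraries, and 1069 of 26832 features (3.98%) were called. The log2 ratio of EP1 over F2 was greater at high P for 628 of them and smaller for 441. This split was 511 and 505 with scaling by total counts, 300 and 298 without EP1 high P library 2, and 368 and 386 without F2 high P library 1, so no lean to either side is read from it. Of the 1069, 253 were called between the lines at high P alone, 396 at low P alone, 274 at both levels in the same direction, 14 at neither and 132 at both in opposite directions. Among the 132, EP1 was the higher line at high P for 72 and F2 for 60. The number of calls changed with the library left out. It was 1285, 598 and 627 without EP1 high P libraries 1, 2 and 3. Without F2 high P libraries 1, 2 and 3 it was 754, 1863 and 1099. Leaving out EP1 low P libraries 1, 2 and 3 gave 597, 505 and 560, and leaving out those of F2 gave 666, 606 and 700. Each such fit also has fewer replicates, and the part of a particular library was not tested. DESeq2 called 2263.

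The pair of genes with the smallest p in each sign were all of the opposite kind. Zm00001d005317 stood at 8.39, 11.3 and 9.87 CPM in EP1 and at 0.662, 0.716 and 1.03 CPM in F2 at high P. At low P it stood at 11.2, 11.2 and 11.6 CPM in EP1 and at 21.8, 17.7 and 14.5 CPM in F2. EP1 was higher at high P by a log2 fold change of 3.63 ± 0.27 (SE; edgeR adjusted p = 5.56e-05), F2 was higher at low P (EP1 over F2 -0.67 ± 0.15, adjusted p = 0.00766), and the interaction was 4.32 ± 0.28 (edgeR adjusted p = 5.36e-05). The EP1 libraries of the P levels lay close together and partly overlapped, while those of F2 lay far apart.

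Zm00001d044181 stood at 57.5, 49.1 and 60.4 CPM in EP1 and at 32.7, 29.3 and 22.7 CPM in F2 at high P. At low P it stood at 21.2, 16.1 and 19.6 CPM in EP1 and at 88.2, 69.4 and 92.2 CPM in F2. The log2 fold change of EP1 over F2 was 0.99 ± 0.16 at high P (edgeR adjusted p = 0.00217) and -2.14 ± 0.14 at low P (adjusted p = 2.11e-05), with an interaction of 3.14 ± 0.23 (adjusted p = 8.57e-05). In EP1 each high P library lay above each low P library, and in F2 each lay below.

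Zm00001d003037 stood at 1.8, 1.88 and 2.09 CPM in EP1 and at 7.94, 10.6 and 6.6 CPM in F2 at high P. At low P it stood at 44.0, 49.8 and 49.4 CPM in EP1 and at 3.23, 4.28 and 4.46 CPM in F2. The log2 fold change of EP1 over F2 was -2.11 ± 0.24 at high P (edgeR adjusted p = 0.000469) and 3.58 ± 0.13 at low P (adjusted p = 1.97e-06), with an interaction of -5.68 ± 0.25 (adjusted p = 2.1e-06). The low P level of EP1 was above the mean of each other genotype, of which P415 was the highest at 18.8 ± 14.4 CPM.

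Zm00001d002181 stood at 0.412, 0.269 and 0.203 CPM in EP1 and at 5.24, 5.88 and 6.15 CPM in F2 at high P. At low P it stood at 6.89, 8.48 and 9.39 CPM in EP1 and at 4.48, 5.52 and 5.26 CPM in F2. The log2 fold change of EP1 over F2 was -4.25 ± 0.32 at high P (edgeR adjusted p = 6.52e-05) and 0.70 ± 0.16 at low P (adjusted p = 0.00902), with an interaction of -4.93 ± 0.32 (adjusted p = 5.36e-05). F2 stood within a narrow range at both levels, and the groups of the lines did not overlap at either.

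Organelle genes can be named, because all 365 of their identifiers matched a locus tag. Only 10 mitochondrial features and 1 plastid feature had enough reads to be tested, and 1 of each was called, both higher in F2. Of all tested features 32.8% were called. All plastid features together, matK included, took 2.68e-05% to 6.56e-05% of the counts in EP1 and 0.000173% to 0.000235% in F2. The 10 mitochondrial features had a median log2 fold change of EP1 over F2 of -0.81, beside 0.01 for nuclear gene models. Of these, orf179 (0.03) and cox3 (0.06) lay slightly above 0. The plastid maturase gene matK, whose product acts in the splicing of plastid introns, had 0.206, 0.161 and 0.102 CPM in EP1 and 1.05, 1.07 and 0.705 CPM in F2, or 2 to 4 and 11 to 21 reads. The libraries did not overlap, and the log2 fold change of EP1 over F2 was -2.54 ± 0.44 (SE; edgeR adjusted p = 0.00321). At low P it was -1.49 ± 0.26 (edgeR adjusted p = 0.00222).

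The mitochondrial reading frame orf101-a had 0.72, 0.269 and 0.661 CPM in EP1 and 1.43, 1.38 and 1.92 CPM in F2. The log2 fold change was -1.49 ± 0.42 (edgeR adjusted p = 0.0275). This call was lost without EP1 library 2, with an adjusted p of 0.0776, without EP1 library 3 (0.0662), without F2 library 1 (0.0565) and without F2 library 3 (0.0683). In the low P libraries the log2 fold change of orf101-a was -1.49 ± 0.46 (edgeR adjusted p = 0.0308). The large and small mitochondrial ribosomal RNAs did not pass the test: rrn26 stood at 261 ± 34.4 CPM in EP1 and 331 ± 67.1 CPM in F2 (edgeR adjusted p = 0.204), and rrn18 at 58.0 ± 7.27 and 68.9 ± 5.62 CPM (adjusted p = 0.196).

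Of 1765 features with an ENSRNA identifier, a class of noncoding RNA models of the annotation, 394 had a count at high P and 82 were tested. Of these 11 were higher in EP1 and 14 in F2, 30.5% against 32.8% over all tested features. The highest, ENSRNA049469775, was chosen after its values were seen. It stood at 683, 717 and 724 CPM in EP1 and at 329, 347 and 243 CPM in F2, with a log2 fold change of 1.22 ± 0.16 (edgeR adjusted p = 0.000993). The lines were as clearly apart at low P, at 408 ± 26.7 and 149 ± 44.6 CPM. At high P the class took 0.0883% to 0.0889% of the counts in EP1 and 0.0432% to 0.0499% in F2, and without this feature 0.015% to 0.0168% and 0.016% to 0.0189%, which overlap. At low P the shares without it were 0.0144% to 0.0151% in EP1 and 0.0104% to 0.0126% in F2, which do not.

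Among the on and silent features 4 were of this class, likewise named after their values were seen. ENSRNA049455651 stood at 3.6 ± 0.416 CPM in EP1 and ENSRNA049471996 at 2.87 ± 0.449 CPM, both with 0 counts in F2, so that they were at least 63.9-fold and 51.0-fold higher in EP1. ENSRNA049478426 stood at 4.04 ± 0.203 CPM in EP1 and at 0.0184 ± 0.0318 CPM in F2. ENSRNA049458857 stood at 5.65 ± 1.52 CPM in F2 with 0 counts in EP1, at least 109-fold higher in F2. The 154 microRNA precursors in the table had 0 counts in all 6 libraries, and nothing is read from them about mature microRNAs.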

How the data were processed

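Total RNA of roots was sequenced from NEBNext Ultra libraries, per the labels' protocols. The submitters' processing notes name fastp, HISAT2, HTSeq and the build B73 RefGen_v4. The sources used here give no versions, annotation release or strand setting, so overlapping, antisense and near-identical genes cannot be separated. The authors deposited raw read counts for 46430 features in a table of 36 libraries (EP1, F2, F160, F142, SF1, SM1) and another of 18 (P024, F7, P415). The authors also deposited FPKM values with gene lengths. FPKM was used only for levels between genes, and all 177631 of 177631 values above 0 in the EP1 and F2 libraries that were compared equalled the scaled count within a relative tolerance of 0.001.

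Lines were compared with edgeR 4.0.16 in R 4.3.3 (with limma 3.58.1), from the counts the authors deposited: TMM scaling, filterByExpr, quasi-likelihood F-test, Benjamini-Hochberg adjustment over all tested features, threshold 0.05. The 6 high P libraries, the 6 low P libraries and all 12 with an interaction term were fitted separately. SEs are approximate, the size of the log2 fold change divided by the root of its F statistic. CPM of the first table uses TMM factors of its 36 libraries. With 3 libraries a side the smallest exact permutation p of 1 gene is 0.1, so calls depend on a spread estimated over all genes. On simulated counts of 25536 genes for the high P comparison, 37% of 2-fold and 89% of 4-fold changes were recovered, and 11.3% of calls were false, above the nominal share. The simulation changed a far smaller share of genes than the 32.8% called here, and none beyond 4-fold. Recovery and false share depend on that setting, so neither carries over to the real calls. The chi-square per degree of freedom between replicates was 13.1 to 47.3 at high P, above sampling noise, so none was merged.

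The comparison, the gene lists and the rules were chosen with earlier results of these data known. None of the 44146 nuclear identifiers matched the RefSeq gene table (assembly NAM-5.0), and 1 of 29 gene lists had an organelle symbol, so no list is reported. With no names, the rule for named genes gave the 2 largest differences per direction with a mean of at least 10 CPM, the highest on and silent gene per direction, the 2 interaction genes of smallest p per sign and the called organelle genes. Alternatives were other scalings, no filter, DESeq2 1.42.0, limma-voom, all 36 libraries, a replicate block, each library left out and other limits for on and silent.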

Additional observations from a re-analysis of the deposited data

Results flagged for a closer look

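The difference between EP1 and F2 was itself different at high and low P for 1069 features by the interaction test (edgeR quasi-likelihood F-test, adjusted p under 0.05). At an unadjusted p under 0.05 there were 5072.

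Zm00001d005317 was drawn out by an interaction of 4.32 on the log2 scale, positive values meaning a greater ratio of EP1 over F2 at high P. At high P F2 stood at 0.801 ± 0.196 CPM and EP1 at 9.84 ± 1.45 CPM, and at low P F2 stood at 18.0 ± 3.7 CPM and EP1 at 11.3 ± 0.256 CPM. The high P levels nearest that of F2 were those of F160, F142 and P415, at 1.47 ± 0.435, 1.71 ± 0.474 and 1.86 ± 0.458 CPM. F7 followed at 2.83 ± 0.234 CPM.

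Zm00001d044181 had an interaction of 3.14, with the higher line exchanged between P levels. Of the 6 genotypes of the first table, F2 was the one with a higher mean at low P than at high P, 83.3 ± 12.2 against 28.2 ± 5.04 CPM. In the second table this held for P415, at 37.6 ± 32.7 against 26.7 ± 7.42 CPM. The P415 mean at low P rests on library 2 at 75.3 CPM, as the others stood at 17.7 and 19.8 CPM.

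Zm00001d003037 had an interaction of -5.68. The EP1 mean was 47.7 ± 3.23 CPM at low P, beside 1.92 ± 0.147 CPM with high P. The other 5 genotypes of the first table had lower means at low P than at high P, while the 3 of the second table had higher ones, 13.4 beside 5.42 CPM in P024, 9.09 beside 5.5 CPM in F7 and 18.8 beside 3.42 CPM in P415.

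Zm00001d002181 had an interaction of -4.93. The EP1 mean was 8.25 ± 1.27 CPM at low P, beside 0.295 ± 0.106 CPM with high P, and the F2 means were 5.09 ± 0.537 and 5.76 ± 0.467 CPM. SM1 was the other genotype with a high P level above 1 CPM, at 14.2 ± 1.92 CPM.

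With alternatives and left-out libraries, these 4 interaction values ran from 4.13 to 4.49, 2.98 to 3.23, -5.85 to -5.5 and -5.28 to -4.75, in the order given, and each passed the test in every one of those fits. The causes were not tested.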

How the results depend on the processing

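The high P count of 8387 was 8389 with DESeq2's size factors in edgeR, 8418 with scaling by totals, 9101 without a filter, 9180 with DESeq2, 8427 with limma-voom and 12251 with all 36 libraries of the table in 1 fit. It was 6559 to 8579 with 1 library left out. The count of at least 2-fold was 4836 to 5497 with 1 left out, and the low P count 11161 to 12652. Libraries of the same number showed no common direction of deviation at high P (r of -3.57e-05, -0.166 and 0.158) or at low P (0.106, 0.00576 and -0.164). With so few libraries per line these values cannot decide whether a number stands for a shared batch. With a replicate block 7439 features were called at high P, 4950 of them with at least 2-fold, 12094 at low P and 932 in the interaction. The interaction count was the least stable: 2263 with DESeq2 and 505 to 1863 with 1 library left out, and the cause was not tested. Features on in EP1 and silent in F2 numbered 74 with an on limit of 5 CPM, 470 with silence under 0.3 CPM, 129 with silence as 0 counts, and 268 to 352 with 1 library left out. Those on in F2 and silent in EP1 numbered 84, 462, 202 and 310 to 340. These limits change the count by construction. With CPM of total counts the numbers were 295 on in EP1 and 293 on in F2, against 256 and 293 in the main setting. No lean to either line is therefore read from the main counts. Of 276 alternative values for the named features none changed sign, and 4 lost the call, all for orf101-a. At this depth, a level under 0.192 CPM cannot be told from 0 in the shallowest library.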

Other observations

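ENSRNA049469775, the highest noncoding feature, stood higher in EP1 than in any other genotype at high P, at 708 ± 22.2 CPM. SM1 followed, then F2 at 306 ± 55.8 CPM and F160, F142 and SF1 at 205 to 237 CPM. In the second table it stood at 87.6 ± 68.1 CPM in P024, 20.4 ± 3.6 CPM in F7 and 112 ± 53.5 CPM in P415, on a scale set by total counts alone. The mean was higher at low P than at high P in SM1, at 508 ± 49.0 CPM, and in F7, at 53.9 ± 14.1 CPM.

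The mitochondrial reading frame orf179 was called at low P, higher in EP1 (log2 fold change 1.11, edgeR adjusted p = 0.0366), and not at high P (0.03, adjusted p = 0.968). The interaction of this feature (ZeamMp091) was -1.06 on the log2 scale and did not pass the test (edgeR adjusted p = 0.402), so the line difference is not shown to depend on P.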
